A study of Mus musculus with 42 samples.

Results

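Major urinary proteins (Mups) are small lipocalins, barrel-shaped carriers of hydrophobic molecules, that the mouse liver makes in very large amounts and secretes into blood and then urine. The 6 genes described here (Mup1, Mup2, Mup3, Mup7, Mup20 and Mup21) were chosen by name and were found among 19732 gene symbols in the deposited liver RNA-seq tables, which also list 14 other Mup symbols. All 6 genes were listed and passed the expression filter in each of the 6 comparisons. In urine, Mups bind volatile pheromones and release them slowly, and Mup20, also called darcin, is itself a male signal to females. Their transcription in liver is a textbook readout of the male pattern of growth hormone secretion, acting through the growth hormone receptor and STAT5, and of androgens. Circulating Mups have also been linked to glucose metabolism.

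Livers came from 42 male C57BL/6J mice, 7 in each of 6 groups. Wildtype (WT) mice and littermates in which ChemR23, the receptor for the lipid mediator resolvin E1 (RvE1) encoded by Cmklr1, was knocked out with CRISPR/Cas9 (KO) were fed from 6 weeks of age for 15 weeks. Lean mice received a diet with 10% of its energy as fat and obese mice a diet with 60%. WT lean, WT obese, KO lean and KO obese mice were injected with vehicle (ethanol in PBS), and WT obese+RvE1 and KO obese+RvE1 mice with 300 ng RvE1, on 4 days before harvest on day 5 after a fast, so that every mouse had been injected and the KO lacked the receptor in all its cells. Reads on listed genes ran from 15960120 to 43755273 per library, with a median of 24253532. Cmklr1, a low-level gene in liver, had between 40.8 and 114 normalized counts in the 7 WT lean mice and between 9.72 and 22.6 in the 7 KO lean mice, and the highest KO mouse was below the lowest WT mouse in the obese mice as well (23.2 against 33.3). A normalized count is the reads of a gene divided by a size factor of its library, and it can be set side by side only within 1 comparison. The labels name no cage or litter, so p-values treat the 7 mice of a group as independent.

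The 6 genes lie in a cluster on chromosome 4 (GRCm38, GENCODE M21) that spans 2.19 Mb from 59956804 to 62150863 and holds 22 protein-coding Mup genes, 21 of them on the minus strand, and 26 Mup pseudogenes. From left to right on the chromosome the positions are 60066469 to 60070475 for Mup7, 60135932 to 60154289 for Mup2, 60498012 to 60501960 for Mup1, 62050234 to 62054158 for Mup20, 62083476 to 62087342 for Mup3 and 62147932 to 62150863 for Mup21, all on the minus strand. Mup1, Mup2 and Mup7 are near copies, whereas Mup20, Mup3 and Mup21 differ from them and from each other at more bases. Mup1 and Mup2 differ at 3 coding bases (99.4% identity) and Mup2 and Mup7 at 7 (98.7%), while Mup2 differs from Mup20 at 50 (90.8%) and from Mup3 at 95 (83%). Mup3 and Mup21 differ at 29 (94.8%). The window of 90 coding bases in exon 2 with the most differences is shown because it shows how far reads can be told apart, with each base that differs from Mup2 in capitals. Mup1 is identical to Mup2 there, while Mup7 differs at 1 base, Mup20 at 13, Mup3 at 25 and Mup21 at 26. The windows are chr4:60139263-60139352 for Mup2, chr4:60069777-60069866 for Mup7, chr4:62053524-62053613 for Mup20, chr4:62086844-62086933 for Mup3 and chr4:62150239-62150328 for Mup21, each read 5′ to 3′ on the minus strand.
Mup2: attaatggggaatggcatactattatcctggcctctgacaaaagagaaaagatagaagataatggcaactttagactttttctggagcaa
Mup7: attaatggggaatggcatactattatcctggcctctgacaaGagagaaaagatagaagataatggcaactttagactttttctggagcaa
Mup20: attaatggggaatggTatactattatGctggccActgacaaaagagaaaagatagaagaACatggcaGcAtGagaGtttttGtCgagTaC
Mup3: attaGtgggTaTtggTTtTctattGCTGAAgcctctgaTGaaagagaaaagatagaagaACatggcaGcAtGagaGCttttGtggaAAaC
Mup21: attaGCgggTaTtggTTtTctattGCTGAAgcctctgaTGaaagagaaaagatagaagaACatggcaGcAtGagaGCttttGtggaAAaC

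The same similarity was measured along the whole transcript as the share of 100-base stretches that occur letter for letter in a transcript of another gene. It was 87.2% for Mup1, 97.3% for Mup2 and 87.1% for Mup7, and the other genes were all Mup genes or Mup pseudogenes. It was 38.8% for Mup20, shared with the pseudogene Mup-ps19 alone, 2.94% for Mup3 and 4.5% for Mup21. For 50-base stretches the share was 50.5% for Mup20, over 25 other genes that include many coding Mup genes, 15.6% for Mup3 and 19.3% for Mup21, beside 94.8% to 100% for the near copies. How the alignment placed a read that matches several Mup genes is not given in the sources used here, so the values of Mup1, Mup2 and Mup7 may hold reads of one another and of their other near copies, and Mup20, Mup3 and Mup21 share less sequence with other genes but may hold such reads too.

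Promoters of Mup2, Mup3, Mup7 and Mup21 were found in the RefSeq table (GRCm38.p6); Mup1 and Mup20 had no entry. Those of Mup2, Mup7 and Mup21 are printed because the genes moved together in these livers, as described further on. Each run holds the 250 bases before the annotated start on the minus strand, and TATATAA is in capitals. The positions are chr4:60139857-60140106 for Mup2, chr4:60070476-60070725 for Mup7 and chr4:62150842-62151091 for Mup21.
Mup2: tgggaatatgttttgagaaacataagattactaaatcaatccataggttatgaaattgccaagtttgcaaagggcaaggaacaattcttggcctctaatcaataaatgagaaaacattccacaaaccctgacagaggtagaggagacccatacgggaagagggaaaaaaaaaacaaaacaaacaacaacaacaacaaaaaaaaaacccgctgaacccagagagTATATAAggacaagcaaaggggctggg
Mup7: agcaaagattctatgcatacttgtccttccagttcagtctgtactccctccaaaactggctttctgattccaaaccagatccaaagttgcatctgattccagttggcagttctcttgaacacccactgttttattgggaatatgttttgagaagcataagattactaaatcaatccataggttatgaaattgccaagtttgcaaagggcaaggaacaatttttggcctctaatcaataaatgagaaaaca
Mup21: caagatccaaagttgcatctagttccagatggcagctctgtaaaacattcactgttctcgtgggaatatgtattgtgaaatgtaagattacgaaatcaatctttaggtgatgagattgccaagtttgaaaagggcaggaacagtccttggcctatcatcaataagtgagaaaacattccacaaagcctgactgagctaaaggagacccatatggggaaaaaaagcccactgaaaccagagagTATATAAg

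TATATAA stands 27 bases before the annotated start of Mup2, 11 before that of Mup3 and 8 before that of Mup21, and was not found in the window of Mup7. Either strand of these 250 bases held TATATAA in 11 of 14 Mup promoters and in 3.04% of all 32851 promoters. The spaced palindrome TTCNNNGAA, the letters bound by STAT factors, was found in 0 of 14 Mup promoters and in 7.02% of all promoters. These are matches of letters only. The Mup7 window shares a run of 66 bases with that of Mup2, which begins at base 155 of the Mup7 window and base 21 of the Mup2 window. Like sequence thus lies further along in the Mup7 window, which ends before the place where Mup2 holds TATATAA. Its absence from that window therefore does not show that the Mup7 promoter lacks it.

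The 6 genes together took between 0.274% (KO obese+RvE1 mouse 12-2L) and 4.86% (KO lean mouse 20-2L) of all reads on listed genes. Median shares were 1.68% in WT lean, 1.93% in WT obese and 2.93% in KO lean mice. They were 1.58% in KO obese, 1.63% in WT obese+RvE1 and 2.06% in KO obese+RvE1 mice. To order the genes by level, normalized counts were divided by exonic length. In WT lean livers the medians per kb were 133098 for Mup20, 130610 for Mup3, 53093 for Mup7, 30494 for Mup2, 18513 for Mup1 and 6687 for Mup21. Mup20 and Mup3 were neighbours without a fixed order, since Mup20 was above Mup3 in 4 of 7 WT lean mice and 6 of 7 KO lean mice but in 1 of 7 WT obese and 1 of 7 KO obese mice. Mup3 was above Mup7, Mup2 above Mup1 and Mup1 above Mup21 in 7 of 7 mice of every group. Mup7 was above Mup2 in 7 of 7 WT lean mice but in 4 of 7 KO obese, 1 of 7 WT obese+RvE1 and 2 of 7 KO obese+RvE1 mice. The order of neighbouring genes depends on the length used. In WT obese mice the medians per kb were 58318 for Mup2 and 67425 for Mup7 by exonic length. Divided by the length of the main transcript, they were 84048 and 75135. In WT lean mice that length put Mup3 (141760) above Mup20 (133098).

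**Figure D1:**
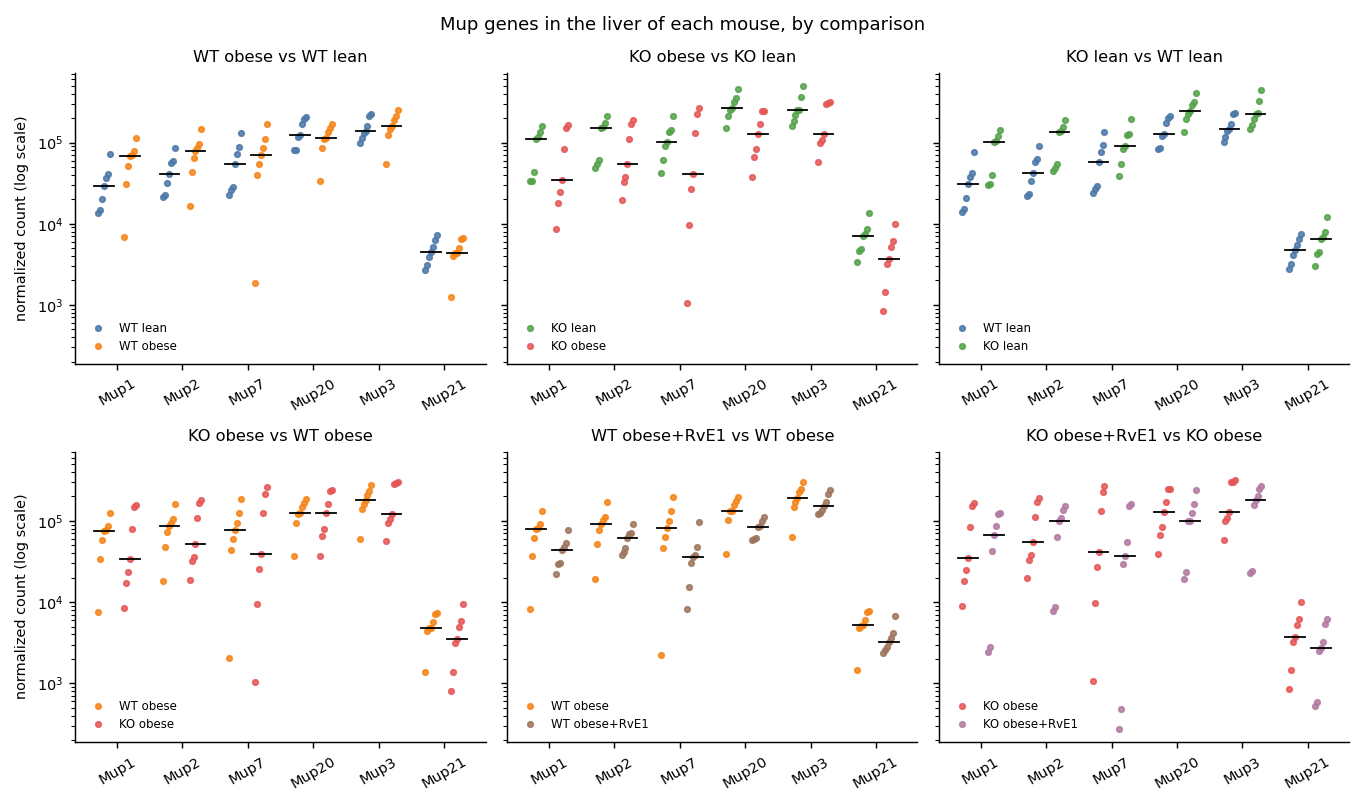
Normalized counts of the 6 Mup genes (log axis) in every mouse of each comparison, with points for mice and a bar for the group median. In the obese groups Mup7 reaches from 1056 to 270298 (KO obese, in the diet comparison), a wider range than in KO lean mice (42436 to 213567).

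The diet comparison in WT mice asked whether obesity moves these genes when the receptor is present. None of the 6 genes was called (a limma p-value of less than 0.1 after BH adjustment, together with a fold change above 1.5), beside 3.80% of the 14012 genes tested that were. Mup20 ran from 81732 to 204657 normalized counts in WT lean mice (median 123515) and from 33828 to 168115 in WT obese mice (median 113107), with overlapping groups (Log2 FC -0.34, SE 0.34, BH-adjusted p = 0.647 in limma). Mup1, which has been described as a circulating metabolic signal, ran from 13550 to 73313 in WT lean mice (median 29325) and from 6918 to 113800 in WT obese mice (median 67558). Its Log2 FC was 0.74 (SE 0.52, adjusted p = 0.484), and the lowest value of both groups was in obese mouse 6R and the highest in obese mouse 27RL. Mup2, its near copy, had medians of 40740 and 77912 (Log2 FC 0.66, SE 0.42, adjusted p = 0.435). Mup7 had medians of 54845 and 69650, and ranged from 22883 to 131141 in WT lean mice and from 1887 (mouse 6R) to 168884 (mouse 27RL) in WT obese mice (Log2 FC -0.11, SE 0.77, 95% interval -1.73 to 1.51). For Mup3 and Mup21 the Log2 FC was 0.01 (SE 0.31) and -0.10 (SE 0.32). The median over the 6 genes was -0.05, beside 0.00 over all genes. In bulk liver RNA, fewer cells that make Mups and less Mup RNA per cell cannot be told apart, here and in each comparison that follows.

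While their levels did not pass the test, the makeup of the Mup reads differed between WT obese and WT lean mice. Mup20 made up 32.2% ± 2.79 of the reads of the 6 genes in WT lean mice and 24.3% ± 3.51 in WT obese mice (SD, n = 7), and 6 of 7 obese mice were below every lean mouse (difference -7.95 percentage points, exact two-sided permutation p = 0.00117, BH-adjusted p = 0.0210 over 36 such tests). Mup2 made up 10.0% ± 1.30 in lean and 15.0% ± 1.60 in obese mice, with 6 of 7 obese mice above every lean mouse (difference 4.92 points, exact two-sided permutation p = 0.00117, BH-adjusted p = 0.0210). Mup1 went the same way, from 7.00% ± 1.80 to 11.2% ± 2.84 (exact two-sided permutation p = 0.00816, BH-adjusted p = 0.0734 over the 36 tests, which is below 0.1 but not below 0.05). These are shares of 1 total, so a higher share of one gene is a lower share of the others, and the tests were chosen after the values were seen. With any 1 mouse left out, the exact permutation p of the Mup2 and Mup20 shares stayed between 0.00117 and 0.00233. Among the reads of Mup3, Mup20 and Mup21 alone, the genes with the least shared sequence, Mup20 took 46.0% ± 2.91 in lean and 40.2% ± 4.07 in obese mice, with 4 of 7 obese mice below every lean mouse (exact two-sided permutation p = 0.0117, one of 2 such tests, not adjusted). The other shares in this comparison differed by less (adjusted exact permutation p of 0.390 to 0.958).

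The number that opens a mouse's identifier (6 in 6R, 27 in 27RL) was not shared by mice of different groups, apart from 23 in KO obese and KO obese+RvE1 mice, so in the diet and genotype comparisons groups could not be compared among mice of the same number. The labels do not say what the number stands for. The mean Mup20 share lay between 28.8% and 34.9% over the 4 numbers of WT lean mice and between 22.6% and 26.5% over the 3 numbers of WT obese mice, and did not overlap. For Mup2 the means were 9.34% to 11.4% and 13.8% to 15.9%.

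**Figure D2:**
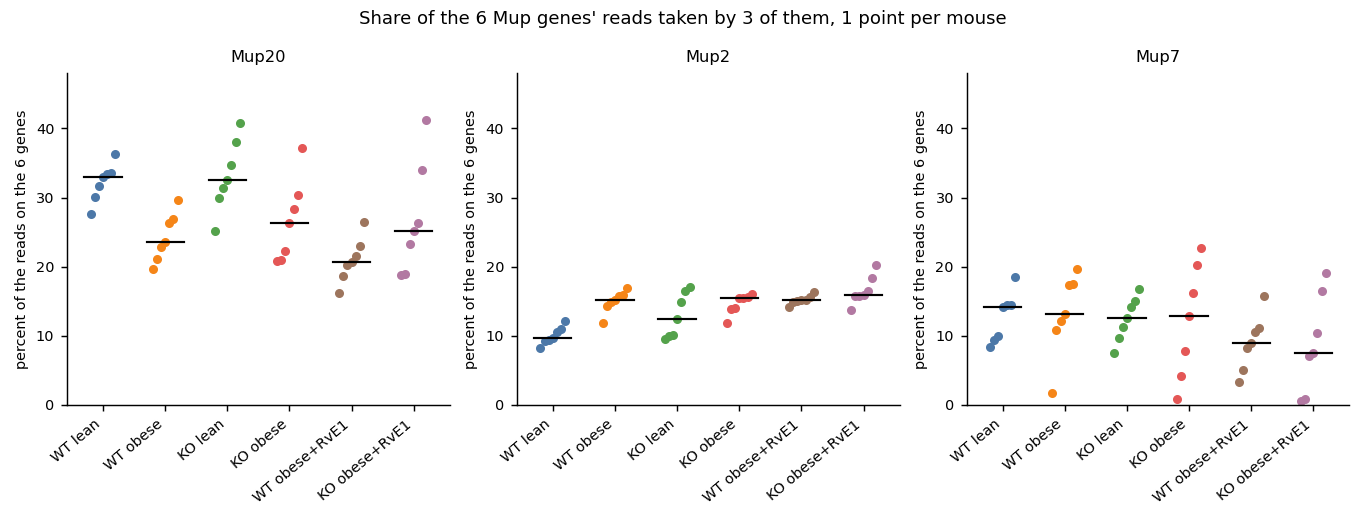
Share of the reads of the 6 Mup genes taken by Mup20, Mup2 and Mup7 (percent, y axis) in the 6 groups, with a point for each mouse and a bar for the group median. The mean Mup20 share is lower in WT obese (24.3%) than in WT lean mice (32.2%), and the mean Mup2 share is higher (15.0% against 10.0%).

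The diet comparison in KO mice asked the same question without the receptor. Mup20 fell, and it was the only one of the 6 genes that was called, beside 10.4% of the 14213 genes tested called in either direction and 5.42% called lower. Mup20 ran from 150468 (mouse 20R) to 456548 (mouse 20-2L) in KO lean mice, with a median of 269357, and from 38183 (mouse 10-2L) to 247911 (mouse 23L) in KO obese mice, with a median of 128041. In 4 of 7 obese mice it was below every lean mouse, and the ranges overlapped in the other 3. Its Log2 FC was -1.23 (SE 0.39, 95% interval -2.07 to -0.40, BH-adjusted p = 0.0455 in limma), 0.425 of the lean level. The call was lost without the 3 KO obese mice whose identifier opens with 10 (Log2 FC -0.67, adjusted p = 0.251), without the KO lean mice of number 9 (Log2 FC -1.12, adjusted p = 0.146), and in a fit with a random effect of the identifier number (Log2 FC -1.17, adjusted p = 0.155).

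The other Mup genes had lower medians in KO obese than in KO lean mice without passing the test. Mup21 ran from 3369 to 13474 in lean mice (median 7055) and from 835 to 9953 in obese mice (median 3652), with a Log2 FC of -0.97 (SE 0.45, adjusted p = 0.152). Mup3 ran from 161410 to 492683 (median 249945) and from 57629 to 313891 (median 126070), with a Log2 FC of -0.72 (SE 0.39, adjusted p = 0.218). Medians were 111333 and 34990 for Mup1 (Log2 FC -0.80, SE 0.61) and 149525 and 53804 for Mup2 (Log2 FC -0.69, SE 0.51). Both near copies were lowest in mouse 10-2L, and 3 obese mice were below every lean mouse for each of them. For Mup1, 1 obese mouse was also above every lean mouse (162834 in 23L, beside a highest lean value of 158365). No obese mouse was above every lean mouse for Mup2. Mup7 had the largest estimate and the largest error of the 6 (Log2 FC -1.45, SE 0.95, adjusted p = 0.312), and KO obese mice lay on both sides of the lean range. Of the obese mice, 4 were below every lean mouse (1056 in 10-2L, 9700 in 10R, 26611 in 10RL and 40578 in 31R) and 2 were above (222778 in 31N and 270298 in 23L), beside 42436 to 213567 in lean mice. The median Log2 FC over the 6 genes was -0.88, beside 0.00 over all genes. The share of Mup20 among the reads of the 6 genes averaged 33.2% ± 5.21 for KO lean mice and 26.6% ± 5.95 for KO obese mice (SD, n = 7, exact two-sided permutation p = 0.0525, BH-adjusted p = 0.261). With library quality weights in limma, which give less weight to libraries far from their group, 4 of the 6 genes were called lower (Mup3, Mup7, Mup20 and Mup21). Of the 12 other Mup genes tested, none was called.

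The estimates with obesity had opposite signs in WT and KO mice for Mup1 and Mup2, and the difference itself was tested as a diet by genotype interaction. It was largest for Mup1 (Log2 FC difference, KO minus WT, -1.55, SE 0.87, adjusted p = 0.339 in limma) and Mup2 (-1.35, SE 0.70, adjusted p = 0.302). For the other 4 genes it lay between -1.34 and -0.73, with adjusted p between 0.378 and 0.630. None passed, beside 0.00718% of the 13924 genes tested (1 gene), and the intervals were wide, from -2.79 to 0.09 for Mup2.

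**Figure D3:**
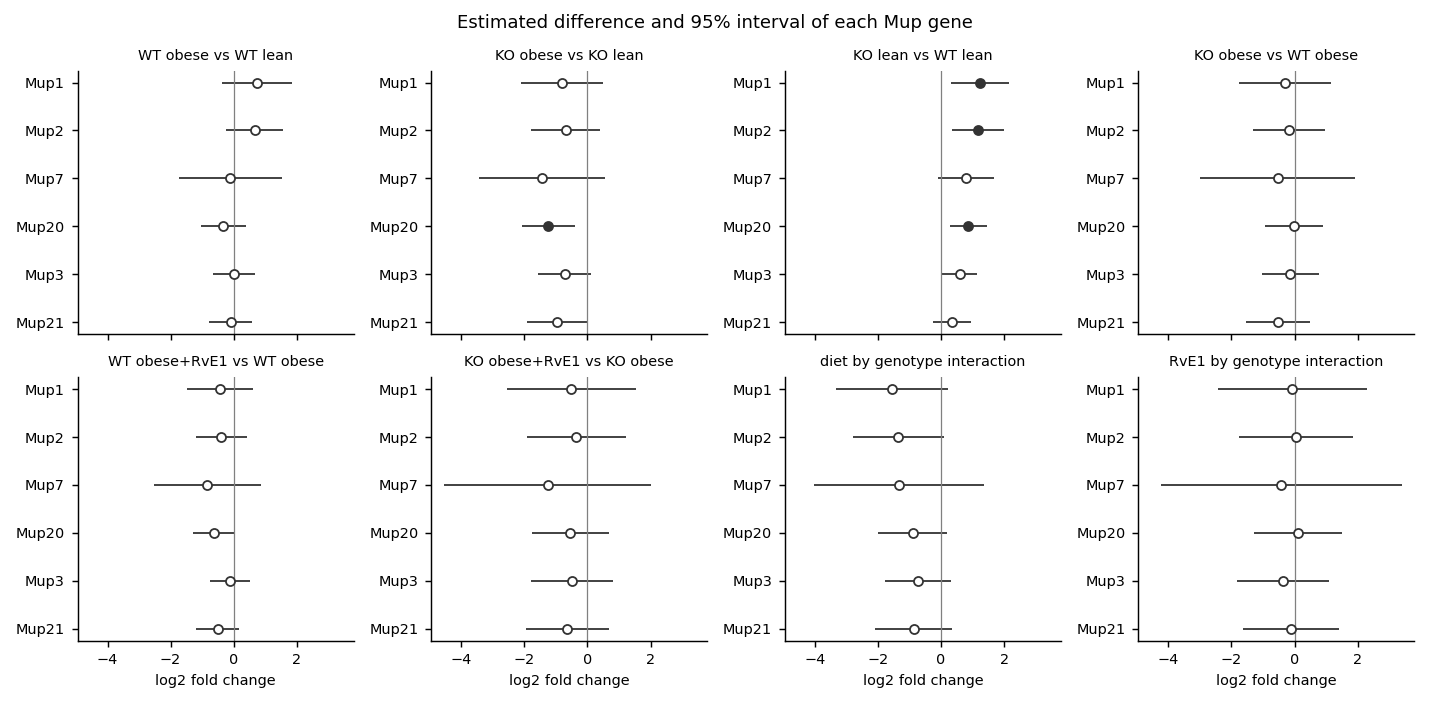
Log2 FC (x axis) of the 6 Mup genes in the 6 comparisons and 2 interactions, with 95% confidence intervals from limma, where filled circles mark the called genes. Filled circles stand at -1.23 for Mup20 in KO obese vs KO lean and at 1.24, 1.17 and 0.87 for Mup1, Mup2 and Mup20 in KO lean vs WT lean.

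The comparison of KO lean and WT lean mice asked what loss of the receptor does without obesity. Mup1, Mup2 and Mup20 were higher in KO lean mice, 3 of 6 genes beside 6.65% of the 13031 genes tested called in either direction and 3.94% called higher. Mup20 ran from 84457 (mouse 8R) to 212866 (mouse 19R) in WT lean mice, with a median of 128450, and from 137079 (mouse 20R) to 414595 (mouse 20-2L) in KO lean mice, with a median of 244242. In 5 of 7 KO lean mice it was above every WT lean mouse, and its Log2 FC was 0.87 (SE 0.27, fold 1.82, BH-adjusted p = 0.0640 in limma). Mup1 ran from 14054 to 76413 in WT lean (median 30640) and from 30372 to 143729 in KO lean mice (median 101020), with 4 of 7 KO mice above every WT mouse (Log2 FC 1.24, SE 0.44, fold 2.37, adjusted p = 0.0821). Mup2 ran from 22176 to 89610 (median 42568) and from 44367 to 190736 (median 135675), again with 4 of 7 KO mice above every WT mouse (Log2 FC 1.17, SE 0.39, fold 2.25, adjusted p = 0.0722). Because Mup1 and Mup2 differ so little in sequence, these are not 2 separate results.

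Mup3, Mup7 and Mup21 did not pass in limma. Mup3 had medians of 145751 in WT lean and 226792 in KO lean mice (Log2 FC 0.59, SE 0.26, adjusted p = 0.164), Mup7 57306 and 91408 (Log2 FC 0.80, SE 0.42, adjusted p = 0.233) and Mup21 4704 and 6402 (Log2 FC 0.34, SE 0.28, adjusted p = 0.457). The groups overlapped for all of them. Over the 6 genes the median Log2 FC was 0.83, beside 0.00 over all genes. Of 10 other Mup genes tested here, 5 were called higher, namely Mup8 (1.29), Mup13 (1.18), Mup12 (1.16), Mup9 (0.98) and Mup10 (0.82), with adjusted p between 0.0688 and 0.0952 in limma. All 5 share 100-base stretches with Mup1 and with Mup2, so they are not separate results either. The smallest member, Mup21, made up less of the Mup reads in KO lean mice, 0.791% ± 0.154 against 1.10% ± 0.148 in WT lean mice (SD, n = 7), with 5 of 7 KO mice below every WT mouse (exact two-sided permutation p = 0.00350, BH-adjusted p = 0.0420 over 36 tests). Its means by identifier number ran from 0.675% to 0.936% in KO lean and from 1.01% to 1.19% in WT lean mice.

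All 3 calls sat close to the threshold. At an adjusted p below 0.05 none of the 6 genes was called, and in the fit with a random effect (block) of the identifier number none was, with adjusted p from 0.170 to 0.184 at almost the same Log2 FC (0.85 to 1.22). When single mice were left out, from 0 to 4 of the genes were called. None was called without WT lean mouse 21L, 26R or 8R or KO lean mouse 20-2L, 20L, 9L or 9RL, and 1 was called without WT lean mouse 8RL. Levels of the Kupffer cell list moved with genotype in the same livers. All 6 markers (Clec4f, Cd5l, Vsig4, Timd4, Marco and Adgre1, the last listed under its older symbol Emr1) were called higher, and their summed normalized counts ran from 2413 to 5692 in WT lean and from 5940 to 13150 in KO lean mice, without overlap. The hepatocyte list (Alb, Apoa1, Apob, Ttr, Trf, Hnf4a and Cps1) had 0 of 7 genes called by limma and sums of 1331800 to 1860400 in WT lean and 1313000 to 1677100 in KO lean mice. In KO obese vs KO lean mice, 5 of the 6 Kupffer markers were called lower, with sums of 6546 to 14502 in lean and 3645 to 4811 in obese mice, and of the erythroid list the beta globin gene listed as Beta-s was called lower (Log2 FC -1.49). The part of these shifts in the Mup results was not tested.

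When both genotypes were obese, the 6 genes were called in neither direction between KO obese and WT obese mice, beside 0.0141% of 14162 genes tested (2 genes). Mup20 ran from 37094 to 184942 in WT obese mice (median 124081) and from 37183 to 237838 in KO obese mice (median 124146), with nearly equal medians and 2 KO mice above every WT mouse (Log2 FC -0.03, SE 0.43, 95% interval -0.95 to 0.89). Mup7 ran from 2069 to 185788 (median 76710) and from 1028 to 259315 (median 39036), with an interval of -2.99 to 1.92 around a Log2 FC of -0.54. The Log2 FC of the other 4 genes lay between -0.52 and -0.14, and the adjusted p was 1.00 in limma for all 6. KO obese mice also serve in the KO diet comparison and WT obese mice in the WT diet comparison, so these estimates are not independent of those above.

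RvE1 was compared with vehicle in obese mice of each genotype. No Mup gene was called in either genotype, beside 0% of 13085 genes in WT and 0% of 14207 genes in KO mice. At an unadjusted p below 0.05, limma had 795 genes in WT and 1179 genes in KO mice, and 0 of the 6 Mup genes in each. In WT mice, Mup20 ran from 39630 (mouse 6R) to 197271 with vehicle (median 132601) and from 57749 (mouse 30RL) to 112491 (mouse 7-2L) with RvE1 (median 84688). The vehicle mice were above every RvE1 mouse in 5 of 7 cases, and mouse 6R was below all of them (Log2 FC -0.64, SE 0.31, 95% interval -1.28 to 0.01, BH-adjusted p = 0.837 in limma). Mup7 had medians of 81712 and 36224, in the ranges 2210 to 198173 and 8228 to 96435 (Log2 FC -0.84, SE 0.80). The Log2 FC was -0.51 for Mup21, -0.44 for Mup1, -0.40 for Mup2 and -0.12 for Mup3, and the RvE1 mice lay inside the vehicle range for every one of them.

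In KO mice the estimates with RvE1 were also below 0 for all 6 genes, from -1.26 (Mup7, SE 1.55) to -0.35 (Mup2, SE 0.74), and the errors were larger than in WT mice. The 95% interval of Mup7 reached from -4.55 to 2.02. Mup20 ran from 38911 to 249873 with vehicle (median 129443) and from 19017 (mouse 12-2L) to 243929 (mouse 23-2L) with RvE1 (median 99617). The next lowest RvE1 mouse was 23RL, with 23570 normalized counts of Mup20. For Mup1, Mup2 and Mup3 the RvE1 medians were above the vehicle medians (66623 against 35373 for Mup1, 98631 against 54393 for Mup2 and 178924 against 127186 for Mup3) although the Log2 FC, a difference between means of log values, was below 0, and the lowest RvE1 values of all 3 genes were those of mice 12-2L and 23RL. With library quality weights in limma, all 6 Log2 FC changed sign in KO mice (0.04 to 0.60). The median Log2 FC was -0.47 in WT and -0.52 in KO mice, and the RvE1 by genotype interaction lay between -0.42 and 0.10 for the 6 genes, with adjusted p of 1.00 and 0% of 13059 genes passing (311 genes at an unadjusted p below 0.05, 0 of them members).

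A marked feature of these genes, most of all of Mup7, was their spread within a group. The residual SD of Mup7 on the log2 scale was 2.09 in the KO diet comparison (8th largest of 14213 genes), 2.52 between the obese genotypes (7th of 14162) and 3.36 in the KO RvE1 comparison (2nd of 14207). It was 0.89 among lean mice (390th of 13031). Genes with a mean of at least 1000 normalized counts had median SDs of only 0.240 to 0.280. Mup3 and Mup20 varied least of the 6, with SDs of 0.51 and 0.54 among lean mice and 1.30 and 1.21 in the KO RvE1 comparison. Among lean mice they ranked only 2362nd and 2011th of 13031 genes, and in the KO RvE1 comparison 162nd and 232nd of 14207. Within a group, the ratio of the highest to the lowest mouse for Mup7 reached 89.5 in WT obese, 256 in KO obese and 593 in KO obese+RvE1 mice (276 in mouse 23RL against 163731 in mouse 12RL).

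**Figure D4:**
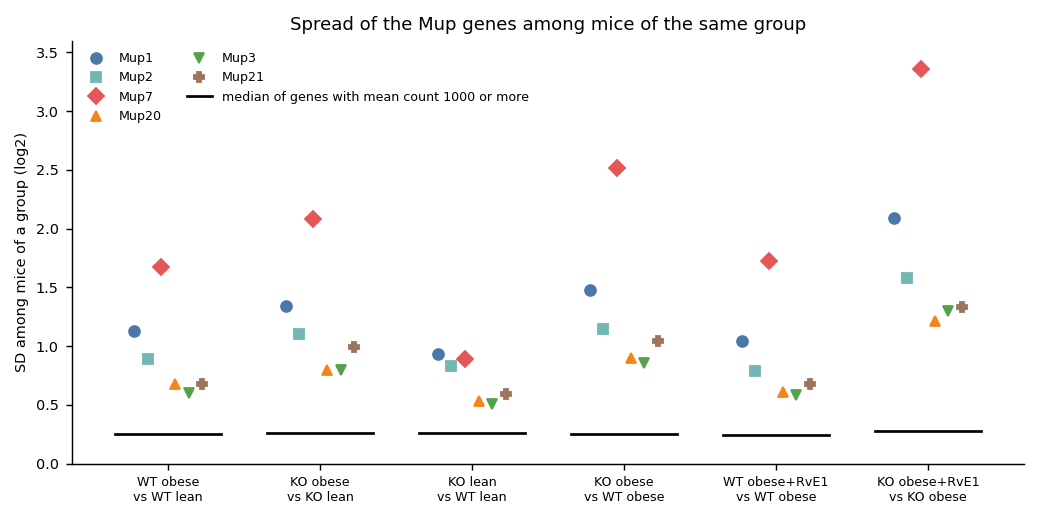
Residual SD of log2(normalized count + 1) (y axis) for each of the 6 Mup genes in each comparison, beside the median of genes with a mean of at least 1000 normalized counts. Mup7 stands highest in the KO RvE1 comparison at 3.36, against a median of 0.280.

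Mice that were low in Mup7 were low in the other 5 genes too. Mouse 6R had the lowest value of its WT obese group for each of Mup1 (6918), Mup2 (16400), Mup3 (54009), Mup7 (1887), Mup20 (33828) and Mup21 (1253). Mouse 10-2L was the lowest KO obese mouse for all 6, and mice 12-2L and 23RL were the 2 lowest KO obese+RvE1 mice for all 6. After subtracting group means, the correlation of log2 values over the 14 mice of a comparison was high for each pair of members. Its median over the 6 comparisons lay between 0.908 (Mup3 with Mup20) and 0.995 (Mup1 with Mup2). Mup1 and Mup2 share most of their sequence. Mup20 with Mup21, at 88% coding identity, had a median of 0.929. Mup3 with Mup21, at 94.8% coding identity, had 0.917. The part of shared reads in these correlations was not tested. The points share libraries, size factors and, between comparisons, whole groups, so these values are a description without a p-value.

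Genes outside the family with the most similar pattern were taken from the 12742 genes tested in all comparisons. For Mup7 they were Slco1a1, an organic anion transporter of the hepatocyte membrane (median r 0.968), Hsd3b5, a steroid reductase made in male liver (0.953), and C8b, a chain of complement C8 (0.925). The lowest of the 6 correlations was in KO lean vs WT lean mice for each of them, where Mup7 varied least (0.487 for Slco1a1, 0.626 for Hsd3b5 and 0.812 for C8b). Mouse 6R had 15.5 normalized counts of Hsd3b5 where the median of WT obese mice was 3553, and 1197 of Slco1a1 where the median was 19195. Mouse 10-2L had 7.72 of Hsd3b5 (KO obese median 1673) and 1008 of Slco1a1 (median 12050). Mice 12-2L and 23RL had 7.83 and 1.27 of Hsd3b5 (KO obese+RvE1 median 2460) and 457 and 339 of Slco1a1 (median 12542). The same 4 mice had the highest Cyp2a22, a cytochrome P450, in their groups, at 750 (median 126), 705 (median 338), 1541 and 1396 (median 265). Alb, which encodes albumin, was at 484900, 627900, 619200 and 722400 normalized counts in them.

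Mup3, Mup20 and Mup21 were most like 2810007J24Rik, the older symbol of the sulfotransferase gene Sult2a8 (median r 0.955, 0.902 and 0.906). Next came Tcea1, a transcription elongation factor, and Ugt2b1, a glucuronosyltransferase, for Mup3 (0.921 and 0.921), Tcea1 and Slco1a1 for Mup20 (0.894 and 0.880), and Hsd3b5 and Slco1a1 for Mup21 (0.900 and 0.890). Mup1 was most like Cela1, a serine protease (0.914), Slco1a1 (0.913) and Ugt2b1 (0.910), and Mup2 most like Ugt2b1 (0.917), Gm16548 (0.913) and Tcea1 (0.910). At the other end, Pip5k1c, a phosphoinositide kinase, was lowest for Mup1 (-0.916), Mup2 (-0.920) and Mup20 (-0.876). Gatsl2, a member of the amino acid sensing Castor family, was lowest for Mup3 (-0.923), Stk10, a kinase of blood cells, for Mup21 (-0.854) and Cyp2a22 for Mup7 (-0.899).

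Sets of genes with related control were followed beside the Mup genes. In 17 male-biased liver genes tested throughout, the correlation with Mup7 was above 0 for 17 of 17 (median r 0.801, from 0.245 to 0.968) and its median with Mup20 was 0.753. Over all genes the median was -0.01 with Mup7 and -0.02 with Mup20. Of 9 female-biased genes, 8 were below 0 with Mup7 (median -0.179). Of 20 genes of the growth hormone and STAT5 pathway, 12 were above 0 (median 0.138), among them Igf1, the growth factor that growth hormone induces in liver (0.788), and Cebpb, a transcription factor (0.634). For 7 hepatocyte markers the median was 0.228, and for 6 Kupffer markers it was -0.050.

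**Figure D5:**
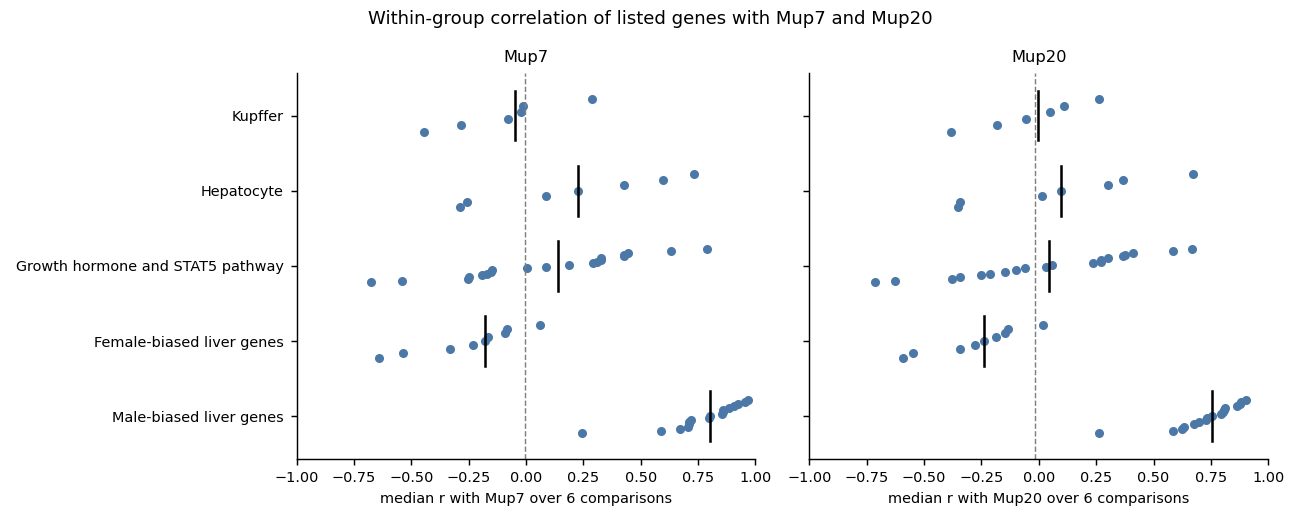
Median correlation (x axis) of each gene of 5 lists with Mup7 and with Mup20 over the 6 comparisons (14 mice each, group means subtracted), with 1 point per gene, a bar at the median of the list and a dashed line at the median over all genes. Male-biased genes all lie to the right of 0 (median 0.801 with Mup7), and Kupffer cell markers lie around 0 (median -0.050 with Mup7).

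Although mouse by mouse the male-biased genes went with Mup7, the group differences of the list and of the Mup genes were not alike in every comparison. With obesity, 3 of 18 male-biased genes were called lower in WT mice, beside 215 of all 14012 genes tested. They were Elovl3, a fatty acid elongase (-1.88), and the fatty acid hydroxylases Cyp4a12b (-1.88) and Cyp4a12a (-1.24), and no member was called there. In KO mice, where Mup20 fell, 7 of 18 were called lower, beside 5.42% of all genes tested. Among them were Cyp4a12b (-1.96), Elovl3 (-1.71), Cspg5, a neural proteoglycan (-1.48), and C8b (-1.10). Hsd3b5 and Slco1a1 had Log2 FC values of -3.15 and -1.22 in KO mice, and only the first was called (adjusted p = 0.0579 and 0.185 in limma). In KO lean vs WT lean mice, where Mup1, Mup2 and Mup20 rose, 1 of 18 was called higher, beside 3.94% of all genes tested. This was Ugt2b38, a glucuronosyltransferase (0.80). The median of the list was 0.01, and Slco1a1 and Hsd3b5 had Log2 FC values of 0.01 and -0.06.

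Of the female-biased genes tested, 4 of 13 were called higher with the diet in WT mice, beside 317 of all 14012 genes. These were Cyp2b9 (6.28), Cyp2b10 (3.20), Hao2 (2.89) and Cyp2a4 (1.95). In KO mice 6 of 15 were called higher, beside 706 of all 14213, with Cyp2b9 (7.64), Cyp2b10 (4.22) and Hao2 (3.69) among them. Another 2 were called lower there, among them Cyp17a1 (-1.32), beside 770 of all 14213. The named genes include cytochromes of steroid and drug oxidation and, with Hao2, a hydroxy acid oxidase. Among the growth hormone and STAT5 genes, Socs2, a feedback inhibitor that growth hormone induces, was the only one of 21 called in WT obese vs WT lean mice (-1.67). In KO obese vs KO lean mice Stat5a (0.67) and the growth hormone receptor gene Ghr (0.63) rose and Cebpa, a hepatocyte transcription factor, fell (-0.81). In KO lean vs WT lean mice Cebpa was higher (0.69) and Onecut1, another such factor, lower (-1.58). None of the 3 lists had a called gene in the RvE1 comparisons.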

How the data were processed

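Gene counts were measured by RNA-seq in 42 mouse livers, with 1 library per mouse and groups taken from the sample titles. The authors made TruSeq stranded libraries, sequenced read pairs on a NovaSeq, aligned them to mm10 with Bowtie2, counted pairs per gene with featureCounts and scaled them with DESeq2, once for each comparison of 14 libraries. No source used here gives the versions, annotation, strand setting or read length. Bowtie2 does not split reads at introns, which can lower counts over exon junctions. The deposited signal values are therefore reads divided by a size factor, and further columns hold the authors' own Log2 FC, p-values and adjusted p-values, which were not used. Between 20 and 26 rows per table carry date-like names, stayed in the tests and name no gene here. Whole reads were recovered from the signal values (100% within 0.1 reads).

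Each comparison was tested two-sided with limma 3.58.1 (trend, R 4.3.3) on log2(normalized count + 1) for genes with a mean of at least 5, and p-values were BH-adjusted over all genes tested. Fold changes on this scale are slightly too small for low genes. Genes were called at an adjusted p below 0.1 and a fold change above 1.5, and interactions at an adjusted p below 0.1. Shares of Mup reads were compared with exact permutation tests (scipy 1.17.1), adjusted over 36 tests added after the values were seen. Alternatives used edgeR 4.0.16 and DESeq2 1.42.0 on recovered reads, other scalings, filters and pseudocounts, quality weights, and mice or identifier numbers left out. On simulated data with 200 genes changed, limma recovered 96% of changes of 1 and 99% of changes of 2 on the log2 scale for KO obese vs KO lean mice, and 87% and 99% for KO lean vs WT lean mice. For the diet and RvE1 by genotype interactions it recovered 66% and 69% of changes of 1. The changed genes were drawn at random. In KO obese vs KO lean mice the residual SD was 0.80 to 2.09 for the 6 Mup genes, against a median of 0.323 over all genes. This recovery therefore does not hold for the Mup genes. Mup genes have many reads, so the spread between mice and not depth limits these values.

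The named genes were the 6 members, other Mup genes with a mean of at least 5, up to 4 called genes per list by smallest adjusted p (1 result of a list gene is not reported here), and for each member the 3 genes with the highest and the 3 with the lowest median correlation. Hsd3b5 and Slco1a1 are also named among the lists' results because they correlated most with Mup7. Lists were written from general knowledge, 4 of their genes were matched through another symbol (Adgre1, Sult2a8, Hbb-bs and Tf, listed as Emr1, 2810007J24Rik, Beta-s and Trf), and both members and lists were chosen with earlier results of these data known.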

Additional observations from a re-analysis of the deposited data

Results flagged for a closer look

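In WT obese mice the lowest mouse, 6R, stood apart from the other 6 for 3 of the 6 genes. On the log2(normalized count + 1) scale in the diet comparison, the gap between mouse 6R and the next lowest mouse was 0.677 of the group's whole range for Mup7, 0.583 for Mup20 and 0.705 for Mup21, above Dixon's 95% critical value of 0.57 for 7 mice. Over the 36 combinations of gene and group examined, chance alone would mark about 5% if they were independent. The 6 genes moved together within groups and all 3 marks are mouse 6R, so the marks stand for 1 low mouse. The low values of Slco1a1 and Hsd3b5 in the same mouse are given with the results, and the cause was not tested.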

How the results depend on the processing

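No paired analysis was possible because the labels give no replicate numbers, and 23, in KO obese and KO obese+RvE1 mice, is the only identifier number found in more than 1 group. With a random block on the first number of the mouse identifier in place of pairing, members called went from 1 to 0 in KO obese vs KO lean and from 3 to 0 in KO lean vs WT lean mice. Members called in KO obese vs KO lean were 4 with library quality weights, 1 to 2 with 1 mouse left out (2 without 31N, when Mup21 was also called), and 0, 0 and 2 without the identifier numbers 9, 10 and 31 (settings added after the values were seen). In KO lean vs WT lean they were 0 at an adjusted p below 0.05, 0 to 4 with 1 mouse left out, and 0, 0, 1, 0 and 0 without the numbers 8, 9, 20, 21 and 26. In the same comparison Mup3 was called with DESeq2 (Log2 FC 0.63, adjusted p = 0.0700 in DESeq2). Mup1 was not called with equal totals of reads outside Mup genes (Log2 FC 1.16, adjusted p = 0.101 in limma). Without 1 mouse, adjusted p in limma ran from 0.0223 to 0.0957 for Mup20 in KO obese vs KO lean, and in KO lean vs WT lean from 0.0165 to 0.137 for Mup20, 0.0310 to 0.172 for Mup1 and 0.0242 to 0.153 for Mup2. Counts of called members were within 1.5 times, or 0 in both, in 131 settings with 1 mouse left out and in 103 others, and moved further in 9 and 12. The 9 were 1 of 14 settings in KO obese vs KO lean and 8 of 14 in KO lean vs WT lean mice. In the contrasts with no member called the count stayed at 0, so their settings say little about stability.

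For the 48 Log2 FC values (6 genes in 8 contrasts), the sign changed in 68 of 840 combinations of value and left-out mouse, over 17 of the values, and in 32 of 539 combinations with other settings, over 18 of them. In WT obese vs WT lean, Mup3 was -0.058 with quality weights and -0.018 with the block, and Mup7 0.32 with edgeR and with DESeq2. In KO obese vs WT obese, Mup20 was 0.038 with the block, and edgeR and DESeq2 gave 0.00950 and 0.013 for Mup1, 0.017 and 0.021 for Mup2, 0.20 each for Mup7, and 0.091 and 0.10 for Mup20. In KO obese+RvE1 vs KO obese, quality weights gave 0.60 for Mup1, 0.48 for Mup2, 0.22 for Mup3, 0.49 for Mup7, 0.038 for Mup20 and 0.11 for Mup21. For the RvE1 by genotype interaction, Mup1 was 0.018 with equal totals outside Mup genes, quality weights gave 1.00 for Mup1, 0.48 for Mup3, 1.31 for Mup7 and 0.79 for Mup21, and the block -0.23 for Mup2 and -0.052 for Mup20. There edgeR gave 0.58 for Mup1, 0.53 for Mup7 and 0.050 for Mup21, and DESeq2 0.57, 0.53 and 0.040.

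With 1 mouse left out, Log2 FC ran in WT obese vs WT lean from -0.12 to 0.25 for Mup3, -0.42 to 0.66 for Mup7 and -0.22 to 0.19 for Mup21, and in WT obese+RvE1 vs WT obese from -0.37 to 0.0045 for Mup3. In KO obese vs WT obese it ran from -0.76 to 0.081 for Mup1, -0.51 to 0.11 for Mup2, -0.38 to 0.10 for Mup3, -1.31 to 0.31 for Mup7 and -0.30 to 0.24 for Mup20. In KO obese+RvE1 vs KO obese it ran from -0.89 to 0.10 for Mup1 and -0.63 to 0.11 for Mup2. The RvE1 by genotype interaction ran from -0.45 to 0.54 for Mup1, -0.24 to 0.50 for Mup2, -0.61 to 0.013 for Mup3, -1.27 to 0.54 for Mup7, -0.17 to 0.44 for Mup20 and -0.45 to 0.22 for Mup21. None of these values passed the test, and the cause of the changes was not tested.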

Other observations

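Liver also makes other lipocalins, the family to which Mups belong. Of 9 tested in WT obese vs WT lean mice, Orm3, an acute phase glycoprotein, rose (Log2 FC 2.40) and Apom, an apolipoprotein that carries sphingosine phosphate, fell (-0.93). In KO obese vs KO lean mice Orm3 (4.31), the iron-sequestering Lcn2 (2.69) and Orm2 (1.04) rose and Apom fell (-0.96). In KO lean vs WT lean mice 0 of 8 lipocalins outside the Mup family were called by limma. Of all 13031 genes tested there, 6.65% were called, so 0 of 8 is close to that share.

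Of the marker lists not yet described, sinusoidal endothelium had 1 of 4 genes called lower with the diet in each genotype, Dnase1l3 (-0.74) in WT and Clec4g (-0.73) in KO mice. The adipocyte and acinar pancreas lists had 0 genes called by limma in any comparison, with 1 to 2 genes of each tested, and of the erythroid list 2 genes were tested and Beta-s alone was called, in KO obese vs KO lean mice. Cela1, which correlated with Mup1, is in the acinar pancreas list and was the highest of it, with a median of 317 normalized counts in WT lean mice, while Cpa1, Pnlip, Prss2 and Ctrb1 were not listed in that table.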
